A study of Homo sapiens with 2 samples.

Results

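The genes described here are 10 human genes whose coding or transcribed sequence came from retroviruses or related retroelements, other than the envelope gene ERV3-1 at which the study was aimed. They were chosen by gene symbol: ERVMER34-1, ERVK3-1, ERVK13-1 and ERVFRD-1 from endogenous retroviruses, PEG10 and LDOC1 from the gag gene of a Ty3-type retrotransposon, PNMA1, PNMA2 and MOAP1 of the paraneoplastic Ma antigen (PNMA) family, and ARC. All 10 are in the count tables, which hold 52402 gene symbols. RNA was sequenced from DLD1, an established human colorectal adenocarcinoma line, in 1 control library labelled wild type and 1 library labelled HERV-R knockout. Both labels carry the same treatment, in which cells received a Cas9 vector and a guide RNA vector by lipofection and were put under hygromycin after 24 h until colonies formed. The sources used here give neither the guide that the control cells received nor the number of clones behind each library. The knockout-labelled library held 16406308 counts and the control 21881122.

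Retroviral envelope proteins bind a receptor on a target cell and fuse membranes, and gag proteins assemble into the capsid that encloses the viral RNA. Over evolution, host genomes have kept some of these sequences as genes. The syncytins, from envelope genes, fuse trophoblast cells in the placenta. PEG10 and ARC, from gag genes, still form capsid-like particles that carry RNA. Most endogenous retrovirus copies are held silent in adult tissue by histone and DNA methylation.

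Of the 10 genes, 4 reached a mean of at least 1 count per 1000000 (CPM) over the 2 libraries and were compared: ERVMER34-1, ERVK3-1, ERVK13-1 and PNMA1. ERVMER34-1 and ERVK3-1 were at least 2-fold higher in the knockout-labelled library, and 0 of the 4 were lower by that much. PNMA2, with a mean below that minimum, stood at 35 counts in control cells against 2 in knockout-labelled cells. ERVFRD-1, PEG10, LDOC1, MOAP1 and ARC had 0 to 2 counts in each library. The 2-fold rule asks for a log2 ratio beyond 1 in either direction after 1 CPM is added to both values. By the same rule 6.78% of the 12644 compared genes were higher and 5.69% lower. With 1 library per group there was no replicate check, so no p-value is given. The folds below are ratios of CPM without a pseudocount, knockout-labelled over control, with exact 95% intervals that cover counting error only.

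**Figure D1:**
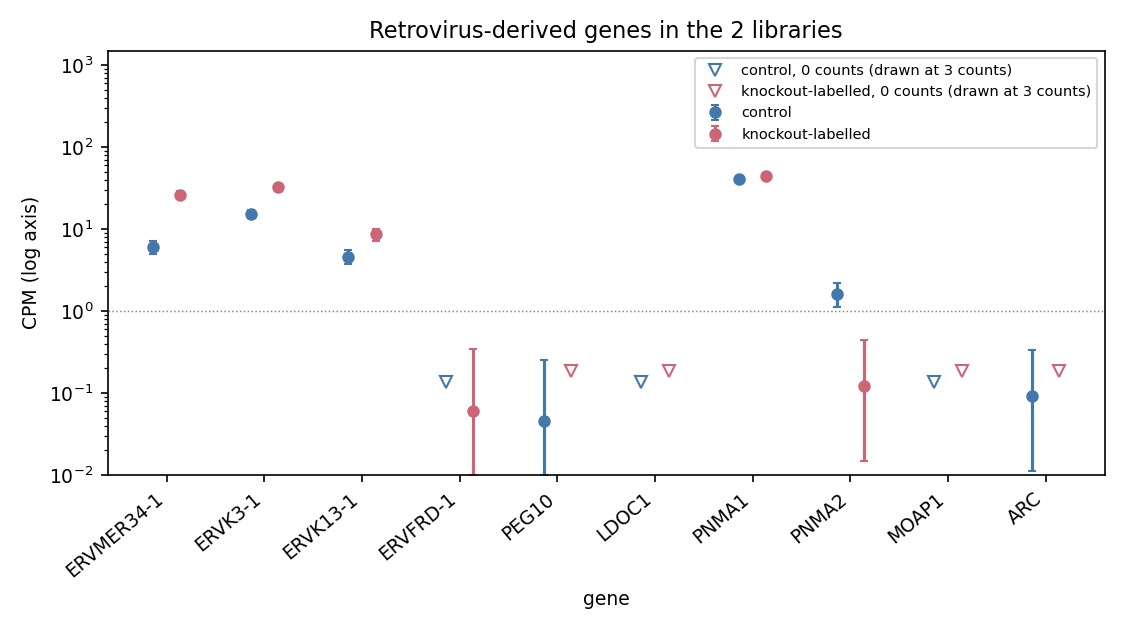
Level of each of the 10 genes in CPM (log axis), 1 point for each library. Bars are exact 95% Poisson intervals of the count, open triangles mark 0 counts and are drawn at 3 counts, and the dotted line is 1 CPM. The 3 endogenous retrovirus loci at the left had higher CPM in the knockout-labelled library with bars that do not overlap, PNMA1 is level, and PNMA2 is lower.

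The label of the knockout was checked on its target first. ERV3-1, which encodes the HERV-R envelope, had 127 counts in control cells (5.80 CPM) and 125 in knockout-labelled cells (7.62 CPM), so its RNA was not lower there. Counts per gene do not show whether ERV3-1 carries an edit, and this was not tested. Every direction given here rests on the label. Colon epithelial markers were present in both libraries: of 9, 7 reached a mean of 1 CPM, among them EPCAM with 701 CPM in control cells and 749.8 CPM in knockout-labelled cells, while KRT20, whose symbol stands on 2 rows, had 0 counts. Of the 7, the keratin genes KRT8 (4138 and 1875 CPM) and KRT18 (4967 and 1741 CPM) were lower by the 2-fold rule described above, and CDX2, an intestinal transcription factor gene, was higher (99.4 and 298 CPM). The summed level of the 9 markers was 11049 CPM in control cells and 5706 CPM in knockout-labelled cells. KRT8 and KRT18 made up most of both sums, and with library totals 3 of the 7 had a log2 ratio above 0. The part of these marker differences in the values below was not tested. Markers of other cell types were low. Of 6 blood markers and 5 endothelial markers 0 reached 1 CPM, of 7 fibroblast markers 1 did, and of 6 trophoblast markers 1 did, GATA3, with the other 5 at 0. Of 6 neuronal markers 2 did, TUBB3 (41.6 and 81.1 CPM) and MAP2 (6.81 and 1.65 CPM). The symbols of the blood marker PTPRC (2 rows) and the trophoblast marker HLA-G (8 rows) also stand on several rows, so their 0 counts are uncertain. In bulk RNA, fewer cells that express a gene and less RNA per cell cannot be told apart.

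ERVMER34-1 had the highest fold of the 10 genes. It encodes the envelope protein HEMO of an old retrovirus (MER34), known from the placenta and from stem cells, where it is shed from the cell surface. The gene lies on the minus strand at chr4:52742553-52751425 (GRCh38), and RefSeq annotates it as protein-coding. It had 131 counts in control cells, or 5.99 CPM (5.01 to 7.10), and 429 in knockout-labelled cells, or 26.1 CPM (23.7 to 28.7). The level in knockout-labelled cells was 4.37-fold that in control cells (3.58 to 5.35), with counting intervals far apart. Its log2 ratio with 1 CPM added was 1.96, and only 38 of the 12644 compared genes (0.301%) had a higher one. It also passed the 2-fold rule with both other pseudocounts and with all 3 other scalings. The lowest log2 ratio over the scalings was 1.81.

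ERVK3-1 lies at chr19:58305377-58316812 (GRCh38, plus strand), in a cluster of zinc finger genes, and RefSeq annotates it as protein-coding. It had 333 counts in control cells, which is 15.2 CPM (13.6 to 16.9), and 531 in knockout-labelled cells, 32.4 CPM (29.7 to 35.2). The ratio was 2.13 (1.85 to 2.45), and the counting intervals of the levels did not overlap. Its log2 ratio of 1.04 stood just inside the rule, and 743 compared genes (5.88%) had a higher one. With each other scaling it fell under the rule, at 0.92 with the trimmed mean of M values (TMM), and a pseudocount of 5 CPM gave 0.89.

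ERVK13-1 is annotated as a long non-coding RNA at chr16:2658389-2673439 (GRCh38, minus strand). It had 100 counts in control cells, 4.57 CPM (3.72 to 5.56), and 141 in knockout-labelled cells, 8.59 CPM (7.23 to 10.1). The ratio was 1.88 (1.45 to 2.45), above 1 but just outside the 2-fold rule, with a log2 ratio of 0.78. Of the compared genes, 12.4% had a higher log2 ratio. All 3 endogenous retrovirus loci that could be compared therefore had a ratio above 1, in an order from ERVMER34-1 through ERVK3-1 to ERVK13-1 in which the intervals of the last 2 overlapped. With the 3 other scalings the log2 ratio of each stayed above 0, and the lowest was 0.65 for ERVK13-1. The median log2 ratio of these 3 was 1.04, against 0.12 over all compared genes. With library totals, 58.1% of all compared genes had a log2 ratio above 0. Of the 3 loci, only ERVMER34-1 passed the 2-fold rule with each of the 3 other scalings.

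**Figure D2:**
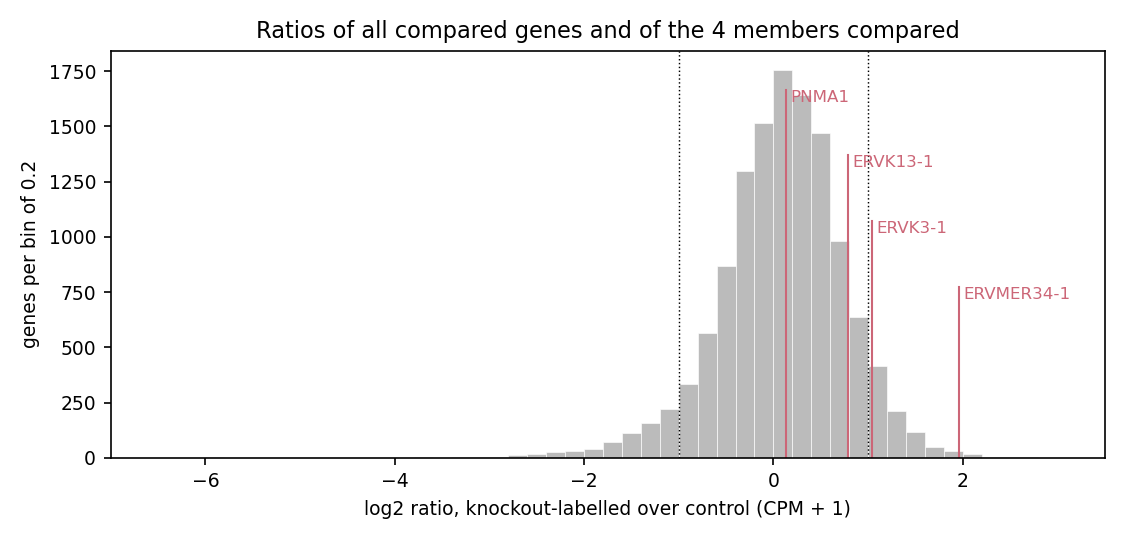
Histogram of the log2 ratio, knockout-labelled over control with 1 CPM added, over all 12644 compared genes in bins of 0.2, with the 4 compared retrovirus-derived genes as vertical lines of arbitrary height. Dotted lines mark the 2-fold rule. PNMA1 (0.13) sits at the centre, ERVK13-1 (0.78) and ERVK3-1 (1.04) on the right shoulder and ERVMER34-1 (1.96) near the right end.

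ERVFRD-1 encodes syncytin-2, the other envelope gene of the set, which fuses trophoblast cells through the receptor MFSD2A. It lies at chr6:11102489-11111725 (GRCh38, minus strand). It had 0 counts in control cells and 1 in knockout-labelled cells, below the level of 3 counts that a count of 0 allows (0.137 CPM in control cells and 0.183 CPM in knockout-labelled cells). No ratio is given for such values. The related syncytin gene ERVW-1 had 3 and 2 counts. GCM1, the transcription factor that drives syncytin genes in trophoblast, had 0 counts in both libraries. MFSD2A itself was expressed at 10.97 CPM in control cells and 12.6 CPM in knockout-labelled cells (ratio 1.14; 0.946 to 1.38), and the ERVFRD-1 locus is not silent as a whole, since SMIM13, which overlaps it, had 26.4 and 30.8 CPM.

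The sequences before the starts of the 3 expressed endogenous retrovirus loci are shown because these loci had higher levels in the same library. They are from RefSeq (GRCh38.p14), whose promoter table held 5 of the 10 genes, and are written 5′ to 3′ on the strand of the gene. Each window covers 250 bases before the RefSeq start. Only the part before every start in the GENCODE v29 annotation is printed, which leaves chr4:52751641-52751675 for ERVMER34-1, chr19:58305127-58305318 for ERVK3-1 and chr16:2673445-2673689 for ERVK13-1. Capitals mark 3 short promoter motifs on either strand: the GC box GGGCGG, the CCAAT box CCAAT and the core CGGAAG that ETS factors can bind.
ERVMER34-1: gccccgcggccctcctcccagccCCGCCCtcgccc
ERVK3-1: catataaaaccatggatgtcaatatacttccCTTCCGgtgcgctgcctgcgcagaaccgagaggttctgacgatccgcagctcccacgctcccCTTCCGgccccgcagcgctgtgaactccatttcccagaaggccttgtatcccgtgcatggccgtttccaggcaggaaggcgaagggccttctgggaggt
ERVK13-1: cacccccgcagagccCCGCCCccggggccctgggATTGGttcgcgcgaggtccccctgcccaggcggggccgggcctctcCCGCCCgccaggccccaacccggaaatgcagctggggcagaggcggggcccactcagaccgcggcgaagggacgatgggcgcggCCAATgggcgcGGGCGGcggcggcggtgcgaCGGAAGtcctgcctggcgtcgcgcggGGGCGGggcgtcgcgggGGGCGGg

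The 3 windows differed in make-up. Over the full 250 bases, the ERVMER34-1 window held 4 GC boxes, 0 CCAAT boxes and 0 ETS cores, at 69.6% G and C, and a stretch of 28 bases occurs in it more than once. The ERVK3-1 window held 4 ETS cores and 1 GC box at 63.2% G and C, with 1 match to the TATA box TATAAA. The ERVK13-1 window held 5 GC boxes, 2 CCAAT boxes and 1 ETS core at 80.4% G and C. Of all 35116 promoter windows of the same length, 42.6% held a GC box, 32.0% a CCAAT box, 16.5% an ETS core and 10.7% the TATA box, and the median was 58.0% G and C. The GC box was the only one of these 4 motifs present in all 3 windows. It was also in the window of LDOC1 (3 matches), which had 0 counts in both libraries. The MOAP1 window held 4 matches, but the 0 counts of MOAP1 cannot be read as a level, as described below. The GC box was therefore not particular to the 3 expressed loci. The E-box CACGTG, the AP-1 site TGANTCA and the TCF site CTTTGAT were found in 0 of the 3, against 6.34%, 6.57% and 2.26% of all windows. A match is a description of the letters and not a bound site.

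Genes within 100 kb of each of the 10 were read from the RefSeq gene table, to see whether a locus moved as a whole. Of the neighbours, 28 could be compared. By the 2-fold rule 2 of them were higher, 3 were lower and 23 passed in neither direction. Their median log2 ratio was 0.21. The share that was higher was 7.14%, against 6.78% of all compared genes, and the share that was lower was 10.7%, against 5.69%, on these small counts. Around ERVMER34-1 all 5 neighbours with any count had a higher CPM in knockout-labelled cells, and 4 of them had more than 3 counts in all. Of the 5, only 2 were compared, both with a log2 ratio above 0, as 58.1% of all compared genes had. No such share is given here for genes below the minimum of 1 CPM. DANCR, a long non-coding RNA 21.9 kb away on the downstream side, had 271 counts in control cells (12.4 CPM) and 504 in knockout-labelled cells (30.7 CPM), 2.48-fold higher (2.14 to 2.89). USP46, a deubiquitinase gene 83.3 kb away, had 21.6 and 31.2 CPM, a ratio of 1.44 (1.27 to 1.64). Its divergent RNA USP46-AS1 had 5 and 29 counts, a ratio of 7.74 (2.96 to 25.6), from a mean below 1 CPM. LOC107986281, an RNA gene that overlaps the start of ERVMER34-1, had 3 and 17 counts, a ratio of 7.56 (2.19 to 40.3). The sources used here do not say whether the counting used strand, so reads of overlapping genes cannot be told apart. The fold of ERVMER34-1 (3.58 to 5.35) lay above those of DANCR and USP46, with intervals that do not overlap.

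Around ERVK3-1, 7 of 9 compared neighbours had a log2 ratio above 0, with library totals and with the 3 other scalings, and 1 passed the rule. With library totals 58.1% of all compared genes had a log2 ratio above 0. ZNF544, a zinc finger gene 27.9 kb upstream, had 34.6 CPM in control cells and 70.8 CPM in knockout-labelled cells, 2.05-fold higher (1.87 to 2.25), but did not pass under any of the 3 other scalings (TMM gave 0.90). ZNF8, only 2.6 kb upstream, had a ratio of 1.33 (1.09 to 1.62), which does not reach the interval of ERVK3-1. ZNF497, 37.5 kb downstream, had 60 and 103 counts, a ratio of 2.29 (1.65 to 3.20), which is above that of ERVK3-1 with overlapping intervals. Its log2 ratio with 1 CPM added was 0.96. ZNF837, 50.8 kb downstream, had a ratio of 1.78 (1.11 to 2.88), also overlapping. The read-through gene ZNF8-ERVK3-1 had 10 and 9 counts, and the part of read-through RNA in the value of ERVK3-1 was not tested. LOC105372480, which overlaps ERVK3-1, had 94 and 87 counts, a ratio of 1.23 (0.911 to 1.67). Around ERVK13-1, 0 of 7 compared neighbours passed the rule, and the number with a log2 ratio above 0 was 6 with library totals, 5 with TMM or the upper quartile and 4 with the median of gene ratios. KCTD5, 9.1 kb upstream, had 61.0 and 62.2 CPM, a ratio of 1.02 (0.938 to 1.11), and FLJ42627, 12.3 kb downstream, had 81 and 41 counts, a ratio of 0.675 (0.452 to 0.995). Both intervals lie below that of ERVK13-1. PDPK1, a protein kinase gene 55.2 kb downstream, had 66.5 and 107.5 CPM, and its ratio of 1.62 (1.51 to 1.73) lies inside the interval of ERVK13-1. SRRM2, an RNA splicing factor gene, had 356 and 421 CPM.

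**Figure D3:**
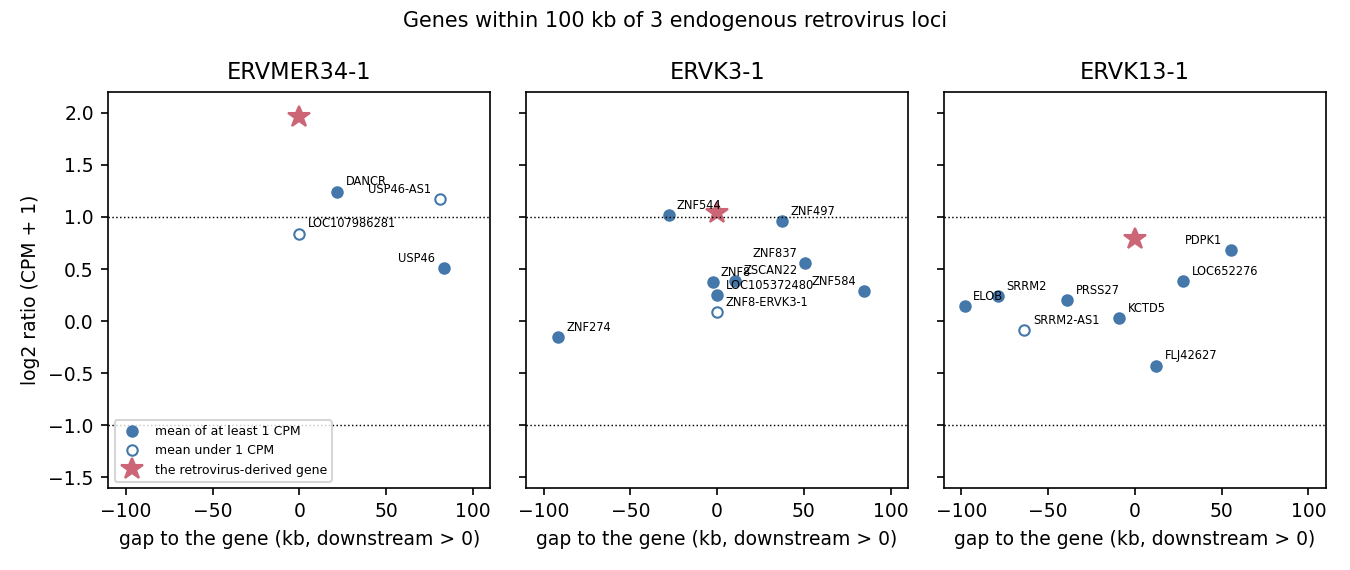
Log2 ratio (CPM with 1 added, knockout-labelled over control) of the genes within 100 kb of ERVMER34-1, ERVK3-1 and ERVK13-1 that had more than 6 counts in all (1 not reported here is not drawn), against their gap to that gene in kb, with downstream positive and overlapping genes at 0. Stars are the retrovirus-derived genes, filled points are genes whose mean reached 1 CPM, open points those below, and dotted lines mark the 2-fold rule. Each star stands above every neighbour drawn in its panel on this scale. ERVK3-1 (1.04) is only narrowly above ZNF544 and ZNF497, and ERVK13-1 (0.78) above PDPK1 (0.68). Without the pseudocount, USP46-AS1 and LOC107986281 had higher ratios than ERVMER34-1, and ZNF497 a higher ratio than ERVK3-1, with overlapping intervals.

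The gag-derived members of the Ty3 family were at or near 0. PEG10, an imprinted gene expressed from the paternal copy and needed for the placenta, lies at chr7:94656325-94669695 (GRCh38, plus strand) and had 1 count in control cells and 0 in knockout-labelled cells. SGCE, an imprinted gene that shares its promoter region with PEG10, had 0 counts in both. CASD1, 22.2 kb from PEG10, was expressed at 22.99 and 21.8 CPM (ratio 0.949; 0.827 to 1.09). LDOC1, a small leucine zipper protein encoded at chrX:141173235-141177129 (GRCh38, minus strand), had 0 counts in both libraries, and each of its 4 neighbours in the table was at 0 too. These values lie at or below 3 counts, so no change in PEG10 or LDOC1 was detectable at this depth.

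PNMA1 was the most abundant of the 10 genes and hardly differed between the libraries. It encodes a paraneoplastic Ma antigen, a gag-like protein known as a target of autoantibodies in neurological disease of cancer patients, and lies at chr14:73711783-73714384 (GRCh38, minus strand). It had 893 counts in control cells, 40.8 CPM (38.2 to 43.6), and 735 in knockout-labelled cells, 44.8 CPM (41.6 to 48.2), with overlapping intervals. The ratio was 1.10 (0.994 to 1.21), and 49.1% of compared genes had a higher log2 ratio. That log2 ratio, 0.13 with library totals, was 0.01 with TMM, -0.01 with the upper quartile and -0.02 with the median of gene ratios, so its sign depends on the scaling.

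PNMA2, a second Ma antigen, on chromosome 8, differed in the other direction. It had 35 counts in control cells, 1.60 CPM (1.11 to 2.22), and 2 in knockout-labelled cells, 0.122 CPM (0.0148 to 0.440), and these intervals do not overlap. It was 13.1-fold lower in knockout-labelled cells, with an interval of 3.37 to 113 that shows how few counts this rests on. Its mean of 0.861 CPM was just under the minimum of 1 CPM. With no minimum its log2 ratio of -1.21 passed the rule, as did 3.54% of the 21660 genes with any count in the same direction. A pseudocount of 5 CPM brought it to -0.37. The neighbour DPYSL2, a cytoskeletal regulator gene that starts 0.2 kb from PNMA2, also had a lower level, with 399.6 CPM in control cells and 259 CPM in knockout-labelled cells (ratio 0.649; 0.625 to 0.673). BNIP3L, a mitophagy receptor gene 91.6 kb away, had 262 and 81.4 CPM, which passes the rule (log2 ratio -1.68).

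The 0 of MOAP1 cannot be read as a level. MOAP1, modulator of apoptosis, is a PNMA family protein that binds BAX at mitochondria and is encoded at chr14:93182199-93184897 (GRCh38, minus strand). It had 0 counts in both libraries, but its symbol stands on 2 rows of each table, as the symbols of all 8 of its neighbours within 100 kb do. Of these 8, 6 were at 0 in both libraries, BTBD7 had 1 count in control cells, and ITPK1 had 40 and 12 counts. Among protein-coding symbols in the tables, 55.6% of the 955 on more than 1 row had 0 counts in both libraries, against 22.04% of the 17426 on 1 row. The sources used here do not say how reads matching several copies were counted, and the part of this in the value of MOAP1 was not tested.

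ARC, a neuronal immediate early gene on chromosome 8 whose product forms RNA-carrying capsids at synapses, had 2 counts in control cells and 0 in knockout-labelled cells. Both values are below the level of 3 counts, and no ratio is given. PSCA, a cell surface antigen gene 55.8 kb away, was lower by the rule, with 52 and 10 counts (2.38 and 0.610 CPM). JRK, 29.2 kb away, had 21.2 and 24.1 CPM. Near ERVFRD-1, the scaffold protein gene NEDD9 was lower as well (105 against 27 counts, 4.80 against 1.65 CPM, log2 ratio -1.13). With a pseudocount of 5 CPM neither PSCA (log2 ratio -0.40) nor NEDD9 (-0.56) passed the rule.

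Levels of different genes can be compared only per length, here as CPM per kb of exon in GENCODE v29. In the control, PNMA1 stood highest at 15.8 CPM per kb (14.7 to 16.8), followed by ERVK3-1 at 3.03 (2.71 to 3.37), ERVMER34-1 at 1.47 (1.23 to 1.74), ERVK13-1 at 0.510 (0.415 to 0.620) and PNMA2 at 0.287 (0.1997 to 0.399). The intervals of neighbours in this order did not overlap. In knockout-labelled cells PNMA1 was again highest at 17.3 CPM per kb. ERVK3-1 (6.44; 5.91 to 7.02) and ERVMER34-1 (6.41; 5.82 to 7.05) no longer differed beyond counting error, and ERVK13-1 stood at 0.959. ERVFRD-1, PEG10, LDOC1 and ARC were at or below 0.0306 CPM per kb in either library. The upper limits of their intervals reached 0.163 CPM per kb, for LDOC1 in knockout-labelled cells. MOAP1 was left out of the order. These lengths depend on the annotation, which may not be the one the authors counted on.

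**Figure D4:**
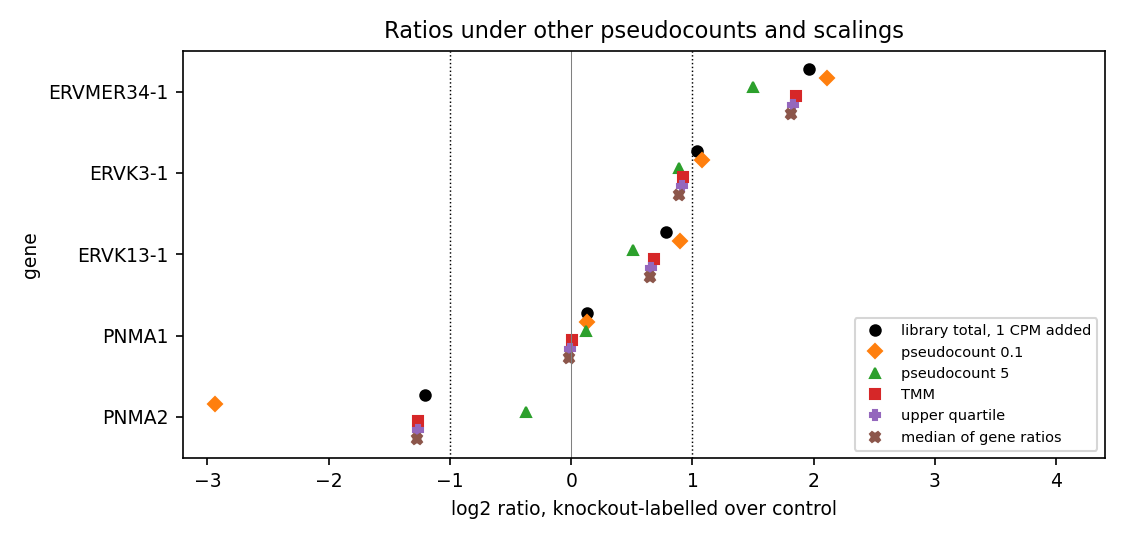
Log2 ratio, knockout-labelled over control, of the 5 genes with more than 6 counts in all, under library total scaling with 1 CPM added, 2 other pseudocounts in CPM and 3 other scalings. Dotted lines mark the 2-fold rule. ERVMER34-1 lies beyond 1 with every setting drawn, ERVK3-1 crosses the line, PNMA1 lies at 0, and PNMA2 ranges from -2.94 with a pseudocount of 0.1 to -0.37 with 5.

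Most genes of the wider family of retroelement-derived genes had few counts or none. Beyond the 10, the list held 27 genes found in the tables, of which 18 had 0 counts in both libraries (against 58.7% of all symbols, and 22.04% of protein-coding symbols on 1 row), 6 had at most 16 counts in a library, and 3 were compared. Of these 3, 0 passed the 2-fold rule. LDOC1L, a relative of LDOC1 now named RTL6, had 49.5 CPM in control cells and 48.0 CPM in knockout-labelled cells, a ratio of 0.969 (0.883 to 1.06). C22orf29, now named RTL10, had 31.4 and 40.4 CPM, a ratio of 1.29 (1.15 to 1.43). GIN1, with an integrase domain of retrotransposon type, had 11.6 and 15.5 CPM, a ratio of 1.34 (1.12 to 1.60). By family, 3 of 9 named endogenous retrovirus genes reached 1 CPM, 2 of 12 gag-derived genes of the PEG10 and LDOC1 family did, and 1 of 12 PNMA genes did. The 9 leave out ERV3-1 and its read-through gene ERV3-1-ZNF117, which both reached 1 CPM. Several of the genes at 0 are near-identical copies of each other, such as FAM127A, FAM127B and FAM127C, so their counts are uncertain.

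**Figure D5:**
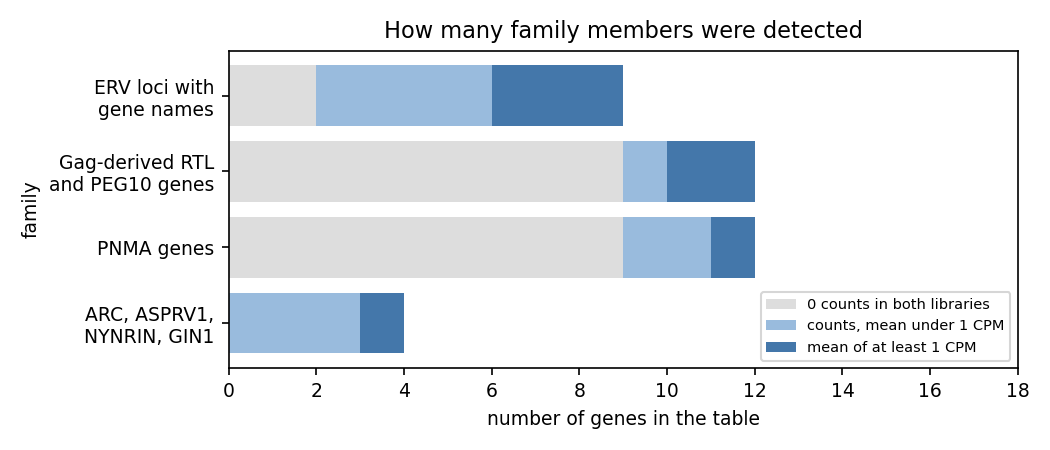
Number of genes in the tables for 4 families of retroelement-derived genes, divided into those with 0 counts in both libraries, those with counts but a mean under 1 CPM, and those whose mean reached 1 CPM. Of the gag-derived and PNMA families 9 of 12 genes each were at 0, against 2 of 9 endogenous retrovirus genes. ERV3-1 and its read-through gene ERV3-1-ZNF117 are left out.

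Genes that act with these proteins or control their loci were read from a list of 33, of which 30 were compared. Of these, 4 passed the 2-fold rule upwards, 2 downwards and 24 not at all. Their median log2 ratio was 0.31. The higher share was 4 of 30, against 6.78% of all compared genes, and the lower share 2 of 30, against 5.69%. Of the 4 higher genes, 3 are silencing factors described below. With each of the 3 other scalings 3 were higher and 3 lower. Of the envelope partners, SLC1A4, a neutral amino acid transporter that can serve as a receptor for syncytin-1, had 116 CPM in control cells and 298 CPM in knockout-labelled cells, 2.56-fold higher (2.44 to 2.69). SLC1A5, the main syncytin-1 receptor, was level at 711 and 717 CPM, and the protease FURIN, which cleaves envelope precursors, had 204 and 220 CPM.

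Of 4 compared PEG10 partners 0 passed. UBE3A, a ubiquitin ligase that lowers PEG10 protein, had 134 and 164 CPM, and USP9X, a deubiquitinase, 127 and 188 CPM. Of 6 compared partners of MOAP1, the survival protein gene BCL2L1 was 3.13-fold lower (303 against 96.6 CPM; 2.97 to 3.31). BAX, which MOAP1 binds, had 28.6 and 58.1 CPM, a ratio of 2.03 (1.83 to 2.25), and stood just outside the rule at 0.997 with 1 CPM added. The death receptor TNFRSF1A had 102 and 89.97 CPM. Of 6 regulators or companions of ARC, the immediate early gene EGR3 was 6.41-fold lower (94 against 11 counts; 3.42 to 13.3). EGR1 had 192 and 127 CPM and SRF 78.3 and 67.96 CPM, neither past the rule, and MEF2D (56.7 and 28.0 CPM) stood just outside it at -0.99.

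Of 10 silencing factors of retroelements, 3 were higher by the rule, 0 were lower and all 10 had a log2 ratio above 0, with a median of 0.85. Over all compared genes 6.78% were higher, 58.1% had a log2 ratio above 0 and the median was 0.12. The DNA methyltransferase DNMT1 had 186 and 467.6 CPM, a ratio of 2.51 (2.42 to 2.61), the histone deacetylase HDAC1 69.7 and 177 CPM, 2.54 (2.39 to 2.71), and UHRF1, which brings DNMT1 to replicated DNA, 46.3 and 99.4 CPM, 2.15 (1.98 to 2.32). UHRF1 lost the rule with TMM (0.97). The corepressor TRIM28 had 324 and 613 CPM and FAM208A of the HUSH complex 99.5 and 143 CPM, neither past the rule. The sign of MORC2, the lowest of the 10, depends on the scaling: its log2 ratio was 0.11 with library totals and -0.01 with TMM. With each of the 3 other scalings 9 of the 10 stayed above 0 and 2 passed the rule.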

How the data were processed

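RNA sequencing of 1 control and 1 knockout-labelled DLD1 library was used, made from 1.3 µg of total RNA with a directional kit per the labels' protocols. The authors deposited raw counts per gene row for each library. Reads were aligned with TopHat to GRCh38, per the submitters' processing notes. The version, counting program, annotation and use of strand are not stated in what was used here. Rows of the same symbol were summed (58173 rows, 52402 symbols) and scaled by library total to CPM. Ratios carry exact Clopper-Pearson intervals conditional on the summed count, and levels carry exact Poisson intervals, at 95%. PCR duplicates are not independent molecules, so these cover counting error only. Genes whose mean reached 1 CPM were compared by a 2-fold rule with a pseudocount of 1 CPM. No test was possible with 1 library per group. A count of 0 allows up to 3 counts. Alternatives were pseudocounts of 0.1 and 5, no minimum or 5 CPM, 1.5-fold and 3-fold rules, TMM and upper quartile (edgeR 4.0.16), the median of gene ratios, and symbols on a single row. Calculations used Python 3.11.15 and scipy 1.17.1, and were tested on simulated data. Members and lists were chosen with earlier results of these data known. From each list every gene past the rule and the 2 most abundant others were named, except genes not reported here; any other gene was named after its values were seen.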

Additional observations from a re-analysis of the deposited data

How the results depend on the processing

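Of the 10 alternatives, the other scalings lowered the log2 ratio of all compared genes by a median of -0.12 (TMM), -0.14 (upper quartile) and -0.15 (median of gene ratios). With each of these 3, and with a pseudocount of 5, 1 of the 10 genes (ERVMER34-1) was higher in place of 2, also over the wider family, and 1 neighbour (DANCR) in place of 2. The 3-fold rule left 1 higher member, 1 higher gene of the wider family, 0 higher partners and 0 higher neighbours, and 1 lower neighbour. With no minimum mean, 1 of the 10 genes was lower in place of 0, PNMA2, as in the wider family. Among partners and regulators, 9 were higher and 4 lower with the 1.5-fold rule, and 1 was lower with a pseudocount of 5 or a minimum of 5 CPM. Among neighbours, 4 were higher and 5 lower with the 1.5-fold rule, and 1 was lower with a pseudocount of 5 or a minimum of 5 CPM. No called gene changed sign under any alternative. No paired analysis was possible because each group has 1 library. Without replicates, the spread between cultures is unknown, and depth limits any statement on ERVFRD-1, PEG10, LDOC1 and ARC.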
